A study of Mus musculus with 12 samples.

Results

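Cytoplasmic ribosomal protein genes encode the protein part of the ribosomes that translate nuclear mRNAs. I took the protein-coding genes whose symbol in the mouse gene annotation starts with Rpl (large subunit) or Rps (small subunit) and a digit, together with Rplp0, Rplp1, Rplp2 and Rpsa, and left out the S6 kinase genes, Rps19bp1 and Rpl7l1. This gave 90 of the 55573 genes in the count files, 56 of the large and 34 of the small subunit. Every member had a row in all 12 libraries. The rule uses no measured value, although earlier results of these data were known when it was set.

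The libraries were made from poly(A) RNA of mouse germinal vesicle (GV) oocytes, which are fully grown oocytes that still have an intact nucleus. The 8 oocytes came from a B6D2F1 female 12 weeks old and were collected in M2 medium with milrinone (2.5 μM), a phosphodiesterase inhibitor. Oocytes were lysed individually in RLT Plus, a fixed amount of ERCC spike-in RNA was added, and the RNA was captured on oligo(dT) beads, reverse transcribed, amplified and made into Nextera libraries. The study used the fractions to illustrate scaling by the spike-in when the input differs. There were 6 groups of 2 libraries. Whole oocytes were amplified for 10, 14 or 18 cycles, with a separate oocyte for each library. Fractions of 1/2, 1/4 and 1/8 were diluted from the lysates of 2 further oocytes and, per the methods, amplified for 18 cycles. The methods describe the dilution of a single lysate to all of these fractions. Which libraries came from the same oocyte is not stated. No gene was altered and no drug was compared. Because there are 2 libraries in each group, p-values measure the spread among these libraries and do not reach beyond the oocytes sampled.

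Whole oocytes had 11597144 and 9189672 gene counts at 10 cycles, 12349577 and 13806199 at 14, and 3017069 and 1706478 at 18. For 1/2 the counts were 4024670 and 3598549, for 1/4 they were 4027907 and 5049518, and for 1/8 they were 11404262 and 1702062. Depth therefore moved with the groups. The share of gene counts on mitochondrially encoded genes moved with them as well. It was 0.329% and 0.197% at 10 cycles, 0.284% and 0.301% at 14, 0.0407% and 0.0665% at 18, 0.0358% and 0.0667% in 1/2, 0.0869% and 0.104% in 1/4, while 1/8 had 0.131% and 0.195%. What depth and this share contribute to the results was not tested. Each whole oocyte was seen at 1 cycle number, so differences between oocytes and between cycle numbers cannot be told apart. Levels are given as counts scaled to 1000000 gene counts in a library (CPM) in the order replicate 1, replicate 2. Without molecular identifiers, the amount of an mRNA in an oocyte and the efficiency of its amplification cannot be told apart.

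The oocyte label was checked against 12 oocyte markers, and all 12 had counts in every library. Gdf9, an oocyte growth factor, was the most abundant of them on average over the libraries. Their summed level was 27523 and 24671 CPM at 10 cycles, 27315 and 28942 at 14, and 8116 and 7230 at 18. In the fractions it was 13214 and 11085 CPM in 1/2, 15616 and 17506 in 1/4, and 24769 and 22388 in 1/8. The markers were thus lowest in the whole oocytes at 18 cycles, the group whose ribosomal protein profile also correlated least with those at 10 and 14 cycles. At 18 against 10 cycles edgeR called 0 of the 12 markers higher and 9 lower with scaling by the median ratio over all genes (0 and 10 in DESeq2), where 12.2% and 10.9% of all genes were called, and the direction flipped to 4 higher and 0 lower with ERCC scaling. In 1/8 against whole oocytes at 18 cycles edgeR called 7 of the 12 higher and 0 lower (8 and 0 in DESeq2). Of all genes 7.08% and 8.66% were called there, and with ERCC scaling 0 markers were higher and 12 lower. In 1/2 and 1/4 edgeR called 0 markers, and DESeq2 called 2 and 5 higher and 0 lower. The part of the markers in the results below was not tested. The 14 cumulus and granulosa cell markers summed to 176 and 86.2 CPM at 10 cycles, 109 and 169.8 at 14 cycles, 69.9 and 28.7 at 18 cycles, 34.3 and 32.5 in 1/2, 60.1 and 60.6 in 1/4, and 78.3 and 79.3 in 1/8. Nr5a2 was the most abundant on average. Inha and Gja1 stood out in replicate 1 at 10 cycles, with 396 and 377 counts against 3 and 0 in replicate 2. They also stood out in replicate 2 at 14 cycles, with 441 and 251 against 45 and 29 in replicate 1. At 18 cycles the whole oocytes differed as well. Inha had 52 and 1 counts there (17.2 and 0.586 CPM) and Gja1 17 and 4 (5.63 and 2.34 CPM). Of the 4 blood markers, Hba-a1 and Hbb-bt were at 0 in every library and the sum was at most 0.172 CPM.

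A ribosome holds a copy of nearly every ribosomal protein, and their mRNAs are among the most abundant in dividing cells. Many of these mRNAs begin with a short tract of C and T bases (a terminal oligopyrimidine, or TOP, motif) through which their translation is controlled together. The growing oocyte makes and stores ribosomes and mRNAs for the embryo, and in the fully grown oocyte transcription has largely stopped. The mouse genome also holds many processed pseudogenes of these genes, whose sequences resemble the spliced mRNAs.

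The 90 genes together took less than 1% of the gene counts in each library. Their share was 0.318% and 0.306% at 10 cycles, 0.290% and 0.309% at 14 cycles, and 0.432% and 0.366% in whole oocytes at 18 cycles. In 1/2 it was 0.662% and 0.450%, in 1/4 it was 0.371% and 0.398%, and in 1/8 it was 0.383% and 0.424%. All 8 libraries at 18 cycles thus lay above all 4 libraries at 10 and 14 cycles, and replicate 1 of 1/2 stood highest. The group means were 0.312% ± 0.00814, 0.299% ± 0.0132 and 0.399% ± 0.0470 for whole oocytes at 10, 14 and 18 cycles, and 0.556% ± 0.150, 0.384% ± 0.0190 and 0.403% ± 0.0292 for 1/2, 1/4 and 1/8 (SD, n = 2 each). The 95% Wilson interval of replicate 1 of 1/2 ran from 0.654% to 0.670%, and that of replicate 1 at 18 cycles from 0.425% to 0.440%. Such intervals, and the limits set by 0 counts below, cover counting error only. Between 18 and 10 cycles, and between 1/2 and whole oocytes at 18 cycles, the libraries did not overlap, and the exact two-sided permutation test gave p = 0.333, the smallest that 2 against 2 libraries allow. The same exact permutation test gave p = 1 for 1/4 and for 1/8 against those whole oocytes. The mitochondrial ribosomal protein genes (78), which serve the separate ribosomes of mitochondria, took a larger share in every group, with means of 0.460%, 0.485%, 0.851%, 0.920%, 0.655% and 0.620% in the same order.

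**Figure D1:**
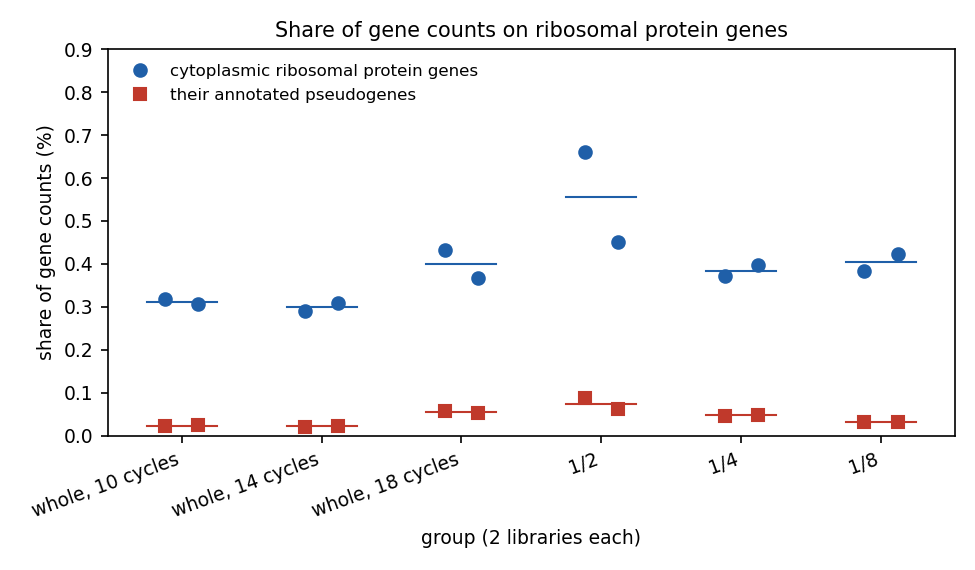
Share of gene counts (%, vertical axis) on the 90 ribosomal protein genes (blue circles) and on their annotated pseudogenes (red squares) in each of the 12 libraries, with a line at each group mean. The circles of the 8 libraries at 18 cycles all lie above those of the 4 libraries at 10 and 14 cycles, and replicate 1 of 1/2 is highest at 0.662%.

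The ratio of ribosomal protein counts to spike-in counts was lower the smaller the fraction. Per 1000 ERCC counts there were 8098 and 4237 ribosomal protein counts in whole oocytes at 18 cycles, 2905 and 1547 in 1/2, 794 and 691 in 1/4, and 189 and 197 in 1/8. These groups did not overlap, and the means of the fractions were 36.1%, 12.04% and 3.13% of that of the whole oocytes. Each was below the nominal fraction of 1/2, 1/4 or 1/8. There were 1027 and 1102 at 10 cycles and 1006 and 1091 at 14 cycles. The mean in whole oocytes at 18 cycles was thus 5.79-fold that at 10 cycles, although each of these libraries held a whole oocyte and the same amount of spike-in. The ERCC counts were 1611 and 1474 at 18 cycles and 35852 and 25528 at 10 cycles. Fold changes with ERCC scaling rest on these counts, and the cause of the difference was not tested. The counts of all genes per ERCC count fell in the same order. They were 1873 and 1158 in whole oocytes at 18 cycles, 439 and 344 in 1/2, 214 and 174 in 1/4, and 49.3 and 46.5 in 1/8. At 10 cycles they were 323 and 360, and at 14 cycles 347 and 354.

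The level of single members was compared between genes as CPM per kilobase of transcript, taken as the mean of the 4 whole oocytes at 10 and 14 cycles. Among the members with high levels were Rpl17 at 249 ± 47.7 (SD, n = 4 libraries), Rpl32 at 229.9 ± 13.1, Rps14 at 225 ± 11.0 and Rplp1 at 217 ± 20.5, which did not differ beyond the spread among libraries. Rpl39l held the most counts of all members in replicate 2 at 18 cycles, with 11.0% of the ribosomal protein counts. The 5 most counted members of a library took between 31.5% and 44.4% of its ribosomal protein counts.

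Over all members the median level was 14.2 CPM per kilobase, against 0.938 over the 21980 protein-coding genes. Their transcripts were short, with a median of 785.5 bases against 2404, and their median GC content was 50.7% against 49.4%. Of the 90 members, 78 lay above the median of protein-coding genes, 51 above the 75th percentile, 22 above the 90th and 2 above the 99th. The median was 11.9 for the large and 16.9 for the small subunit. The large subunit held between 57.8% and 61.5% of the ribosomal protein counts in each library, so the balance of the subunits moved little across cycles and fractions. Rps20 and Rps15a, of the small subunit, had levels of 14.5 ± 0.340 and 10.4 ± 0.738, with long annotated transcripts of 3706 and 5179 bases. Division by these lengths lowers their levels, which depend on the annotated transcript taken for each gene.

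At the lower end, 5 members had 0 counts in every library: Rpl3l, the muscle form of Rpl3, and Rpl36-ps4, Rpl36a-ps1, Rpl9-ps1 and Rps12-ps3, which are annotated as protein coding under a pseudogene symbol. In the library with the fewest gene counts, 0 counts allow up to 1.76 CPM. Rpl9-ps6 had 3 counts, all in replicate 2 at 14 cycles. Rpsa, the laminin-receptor protein of the small subunit, reached only 1.76 ± 0.586 CPM per kilobase and lay at the 55.0th percentile of protein-coding genes. The members with counts numbered 83 and 83 at 10 cycles, 83 and 85 at 14, 79 and 75 at 18, 84 and 82 in 1/2, 80 and 83 in 1/4, and 82 and 79 in 1/8.

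Shared sequence limits how well the genes can be told apart. Of the 90 members, 86 shared at least 1 stretch of 50 bases with another annotated gene, and 18 shared over 80% of such stretches. The 18 had a median level of 1.61, against 20.3 for the other 72. Across the 75 members with over 50 counts at 10 and 14 cycles, the Spearman correlation of level with the shared percentage was -0.289, with transcript length -0.370 and with GC content 0.195, given as a description across genes, which are not independent. Rpl39l shared no such stretch, whereas Rpl17 shared 78.7% of its stretches with 51 genes and Rps27 shared 98.6%. The files list 0 reads mapped to several places, and how such reads were treated is not stated, so the levels of members with much shared sequence are uncertain. Exons of another gene overlapped 18 members, over 40% of the transcript in 10 of them (Rpl13a, Rpl23a, Rpl24, Rpl30, Rpl31, Rpl35, Rpl36al, Rpl5, Rps10 and Rps25), and their values are uncertain as well, since the strand setting of the counting could not be settled.

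**Figure D2:**
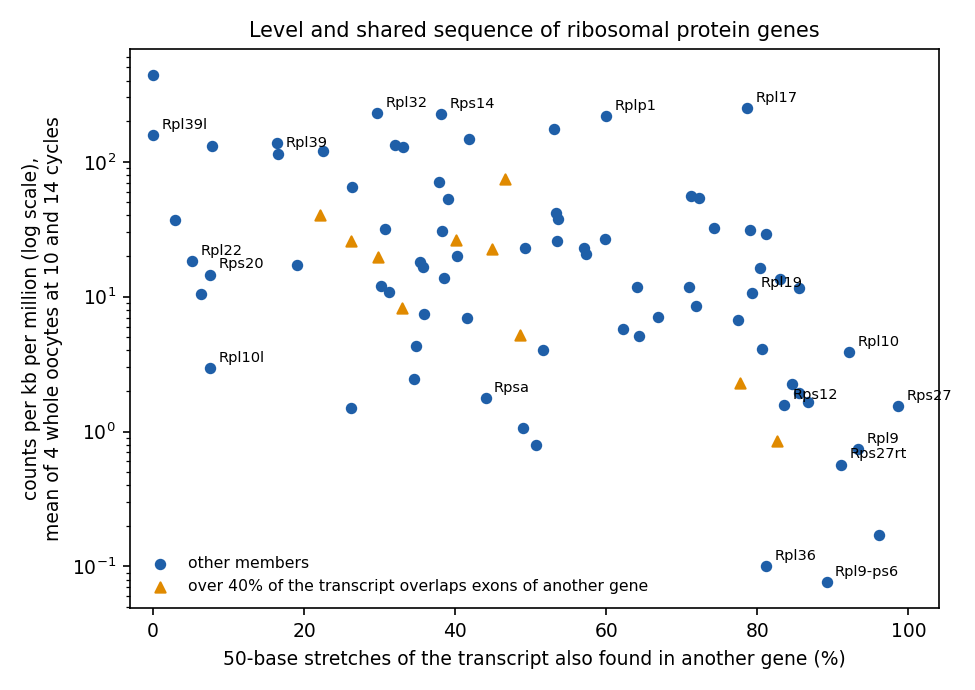
Level of each member with counts (vertical axis, CPM per kilobase on a log scale, mean of the 4 whole oocytes at 10 and 14 cycles) against the percentage of its 50-base stretches also found in another gene (horizontal axis). Each point is a gene, and orange triangles mark members with over 40% of the transcript overlapped by exons of another gene. Over all 90 members, including those at 0 counts, members sharing over 80% have a median of 1.61 and the others of 20.3.

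The annotated pseudogenes of the members (289) drew counts of their own. They made up 6.77% ± 0.688 of the summed counts of members and pseudogenes at 10 cycles, 6.81% ± 0.276 at 14, 12.1% ± 0.410 at 18, 11.8% ± 0.293 in 1/2, 10.9% ± 0.333 in 1/4 and 7.25% ± 0.582 in 1/8 (SD, n = 2 each). The groups from whole oocytes at 18 cycles, 1/2 and 1/4 were thus above those at 10 and 14 cycles and 1/8. The part of pseudogenes in the changes of single members was not tested.

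Changes between groups were tested across all genes with edgeR's quasi-likelihood test and p-values adjusted by Benjamini-Hochberg, and a gene was called at an adjusted p under 0.01. Fold changes were scaled by the median ratio over all genes. Scaling by the ERCC counts instead shifted the median log2 fold change of all genes by -0.02 for 14 against 10 cycles, 2.26 for 18 against 10 cycles, -1.98, -2.75 and -4.95 for 1/2, 1/4 and 1/8 against whole oocytes at 18 cycles, and -2.76 for 1/8 against 10 cycles. Higher and lower are therefore meant relative to the bulk of all genes. The sign of the fold change flipped for some of the called members, named where they are described.

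To ask whether the cycle number alters the profile, whole oocytes at 14 and at 18 cycles were each compared with those at 10 cycles. Of the 81 members tested at 14 against 10 cycles, edgeR called 0 higher and 0 lower, against 0% and 0% of the 17532 genes tested. The count at an unadjusted p under 0.05 was 0 as well (2.93% of all genes), and DESeq2 called 0. The median log2 fold change was -0.10 over the members (-0.19 without replicate 2 at 14 cycles and -0.05 without replicate 2 at 10 cycles) and 0.01 over all genes, and members ranged from -2.64 to 1.11. Across the members, log2(CPM + 1) correlated between 0.987 and 0.994 (Pearson) for pairs among the 4 libraries at 10 and 14 cycles. For pairs of these with a whole oocyte at 18 cycles it was 0.840 to 0.871, and over all genes 0.884 to 0.904.

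At 18 against 10 cycles the members moved in both directions. Of the 81 tested, 19 were called higher (12.2% of all genes were) and 8 lower (10.9% of all genes), with DESeq2 calling 21 and 10 (2717 and 2445 of all genes). With ERCC scaling the split became 53 higher and 0 lower, next to 8348 and 0 of the 17532 genes. The median log2 fold change was 0.12 over the members (0.05 without replicate 1 and 0.49 without replicate 2 at 18 cycles) and -0.30 over all genes, and 54 of the 81 lay above the median of all genes. The large subunit had 13 higher and 4 lower of 49 tested and the small subunit 6 and 4 of 32. Without replicate 1 at 10 cycles the number higher was 9, and without replicate 2 at 10 cycles 12, and over all genes it fell as well, from 2131 to 975 and 924. The calls of 13 of the 27 held in each fit that left out 1 library and under every other setting apart from ERCC scaling.

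Rpl8 (ENSMUSG00000003970, GRCm38 chr15:76904078-76906314), a conserved protein near the catalytic center of the large subunit, had 129 and 94.7 CPM at 10 cycles, 106 and 113 at 14, and 486 and 373 at 18. Both libraries at 18 cycles lay far above the other 4 whole oocytes. Its log2 fold change at 18 against 10 cycles was 2.20 (SE 0.21, 4.59-fold; edgeR's quasi-likelihood test, Benjamini-Hochberg adjusted p = 8.6e-05). Only 7.86% of its stretches were shared. Rpl10a (ENSMUSG00000037805, chr17:28328471-28331033), of the stalk at the tRNA exit site, rose most, from 7.33 and 3.92 to 36.5 and 23.4 CPM, a log2 fold change of 2.67 (SE 0.40, 6.35-fold; edgeR's quasi-likelihood test, Benjamini-Hochberg adjusted p = 0.00059). It shared 77.5% of its stretches with 5 genes and is uncertain in level.

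Rps20 (ENSMUSG00000028234, chr4:3831334-3835665), a protein of the small subunit head, had nearly equal values in the whole oocytes at 10 and 14 cycles, 55.5 and 54.3 then 53.0 and 52.9 CPM. At 18 cycles it had 176 and 189 CPM. Its log2 fold change was 1.99 (SE 0.20, 3.98-fold; edgeR's quasi-likelihood test, Benjamini-Hochberg adjusted p = 9.3e-05), while at 14 against 10 cycles it was -0.09 (SE 0.19). Rps26, which lies at the mRNA exit channel, had 21.4 and 16.5 CPM at 10 cycles and 73.2 and 55.7 at 18 cycles. Rpl13, of the large subunit, had 15.3 and 12.2 CPM at 10 cycles and 59.3 and 32.8 at 18 cycles. In both genes the groups were apart, with 4.06-fold and 4.01-fold changes. Rpl13 shared 80.3% of its stretches, and its call was lost without replicate 2 at 10 cycles (adjusted p = 0.014 by edgeR's quasi-likelihood test, Benjamini-Hochberg adjusted).

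The stalk of the large subunit, which recruits the translation factors that use GTP, is built from Rplp0 and copies of Rplp1 and Rplp2. Rplp2 had 28.9 and 34.2 CPM at 10 cycles and 106 and 130.1 at 18 cycles, a log2 fold change of 2.16 (SE 0.24, 4.48-fold; edgeR's quasi-likelihood test, Benjamini-Hochberg adjusted p = 0.00014). Rplp1 had 111 and 121 CPM at 10 cycles and 315 and 216 at 18 cycles, 2.72-fold, and was not called without replicate 1 at 10 cycles (adjusted p = 0.0104 by the same edgeR test). Rplp0, their anchor, had 207 and 189.7 CPM at 10 cycles and 169 and 109 at 18 cycles, a log2 fold change of -0.26 that was not called (adjusted p = 0.34 in edgeR's quasi-likelihood test, Benjamini-Hochberg). In CPM the acidic proteins and their anchor thus lay on different sides of 10 cycles. The log2 fold change of Rplp0 was close to the median of all genes, -0.30, and with ERCC scaling its sign flipped, to 2.05. Whether the genes differ in their change was not tested. Rpsa had 5.09 and 2.94 CPM at 10 cycles and 1.66 and 0.586 at 18 cycles and was not called (adjusted p = 0.14, same edgeR test).

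Among the 8 lower members, Rpl17 (ENSMUSG00000062328), which lines the exit tunnel for the nascent chain, had 200.1 and 141 CPM at 10 cycles, 202 and 229 at 14, and 21.9 and 31.1 at 18. Rps4x (ENSMUSG00000031320, chrX:102184941-102189394), the X-linked form of Rps4, had 59.4 and 53.8 CPM at 10 cycles and 8.62 and 9.38 at 18 cycles. Both were far below in the whole oocytes at 18 cycles, with log2 fold changes of -2.45 (SE 0.27, 5.47-fold; edgeR's quasi-likelihood test, Benjamini-Hochberg adjusted p = 0.00014) and -2.41 (SE 0.27, 5.33-fold; adjusted p = 0.00015). Rps15a (ENSMUSG00000008683, chr7:118104372-118116188), of the small subunit, had 53.7 and 59.3 CPM at 10 cycles and 12.3 and 13.5 at 18 cycles. Rpl7 had 62.0 and 40.3 CPM at 10 cycles and 10.9 and 11.7 at 18 cycles. Their values at 18 cycles were 3.72-fold and 3.8-fold lower in the fit, and Rpl7 was not called without replicate 1 at 18 cycles (adjusted p = 0.0122, edgeR's quasi-likelihood test, Benjamini-Hochberg adjusted).

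Rps14, which lies at the platform of the small subunit, had 130.0 and 141 CPM at 10 cycles and 59.0 and 66.8 at 18 cycles, the smallest change among the called members, 1.81-fold. Its call was lost in 5 of the 6 fits that left out a library, all but that without replicate 2 at 18 cycles (adjusted p up to 0.0556 without replicate 2 at 10 cycles, edgeR's quasi-likelihood test, Benjamini-Hochberg adjusted). Rpl19 (ENSMUSG00000017404, chr11:98026710-98030492), which reaches across to the small subunit, had 119 and 72 counts at 10 cycles (10.3 and 7.83 CPM) but 4 and 0 at 18 cycles. Its log2 fold change of -3.22 (SE 0.75; edgeR's quasi-likelihood test, Benjamini-Hochberg adjusted p = 0.0069) was the largest fall called and rests on those few counts. It was -2.58 without replicate 2 at 18 cycles. Without replicate 1 at 18 cycles the group was left at 0 counts, so the fitted value of -9.47 is not an exact fold. Leaving out either replicate at 10 cycles, replicate 2 at 14 or replicate 2 at 18 cycles ended the call, and over the 6 fits the adjusted p ran from 0.00692 to 0.0402, the highest without replicate 1 at 10 cycles (edgeR's quasi-likelihood test, Benjamini-Hochberg adjusted). With ERCC scaling the sign of the fold change flipped to positive for Rpl39, Rpl7, Rps14 and Rps15a and remained negative for Rpl17, Rps4x and Rpl19.

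Rpl3 and Rpl24 passed the filter but had 0 counts in both whole oocytes at 18 cycles. Rpl3, next to the catalytic center, had 44 and 15 counts at 10 cycles, and Rpl24, which bridges the subunits, had 23 and 11. Neither was called (adjusted p = 0.017 for Rpl3 and 0.043 for Rpl24, edgeR's quasi-likelihood test, Benjamini-Hochberg adjusted). Rpl3 shared 85.6% of its stretches, and 71.5% of the Rpl24 transcript is overlapped by another gene. Rpl32, of the large subunit, had 125 and 118 CPM at 10 cycles and 67.3 and 79.1 at 18 cycles, without overlap, but was not called (adjusted p = 0.10, edgeR's quasi-likelihood test, Benjamini-Hochberg adjusted).

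**Figure D3:**
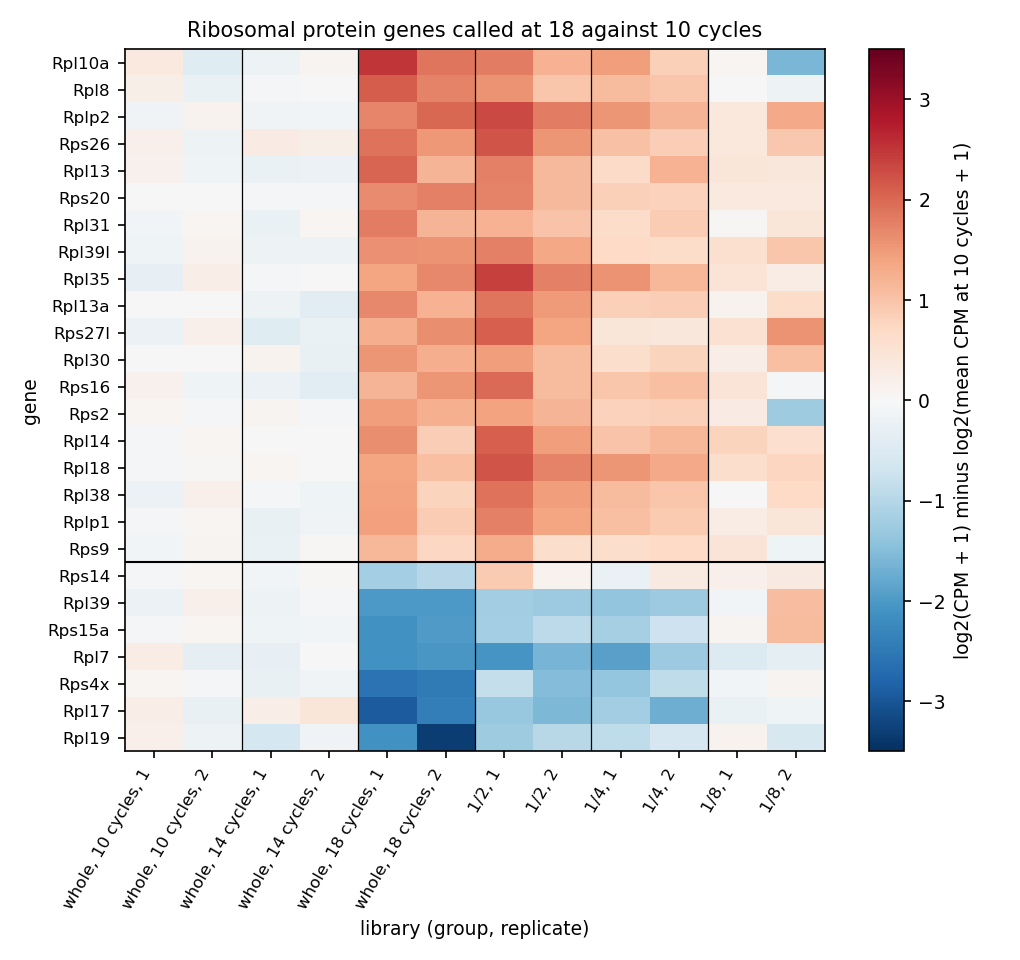
Level of members called at 18 against 10 cycles (rows) in each of the 12 libraries (columns), as log2(CPM + 1) minus log2 of the mean CPM + 1 at 10 cycles (color scale). The 19 members above the line are red and those below it blue in the whole oocytes at 18 cycles, while 1/8 is near 0 for most; relative to ERCC counts the sign of Rpl39, Rpl7, Rps14 and Rps15a at 18 cycles flips.

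The fractions were compared with the whole oocytes at 18 cycles to ask whether less input changes the profile at the same number of cycles. The fractions came from other oocytes than these whole oocytes, so input and oocyte of origin cannot be told apart. The fit treated the libraries of the fractions as independent, although they were diluted from the lysates of 2 oocytes. Of 78 members tested in 1/2, 1 was called higher (0.0811% of all 14788 genes were) and 0 lower (0.0338% of all genes), with 27 (34.6%, against 13.1% of all genes) at an unadjusted p under 0.05 in edgeR and 4 higher and 0 lower in DESeq2 (105 and 49 of all genes). The median log2 fold change was 0.56 over the members and -0.01 over all genes, and 64 of the 78 lay above the median of all genes. Single libraries moved the median of the members, to 0.28 without replicate 1 of 1/2, with 50 of 77 above the median of all genes, and to 0.85 without replicate 1 at 18 cycles. The number higher was 0 without either replicate at 18 cycles, replicate 1 of 1/2 or replicate 1 of 1/8, where at most 2 of all genes were higher, and 3 without replicate 2 of 1/2, where 24 of all genes were. Rpl32, Rps14 and Rplp0 were not called, with log2 fold changes of 1.66, 1.65 and 1.58 (adjusted p = 0.013, 0.017 and 0.021, edgeR's quasi-likelihood test, Benjamini-Hochberg adjusted), and with ERCC scaling the signs flipped, to -0.23, -0.24 and -0.42. Rplp0 had 169 and 109 CPM in the whole oocytes at 18 cycles and 509 and 337 in 1/2.

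In 1/4, edgeR called 0 of 78 members higher (0.0406% of all genes were) and 0 lower (0.426% of all genes), with 24 (30.8%, against 15.8% of all genes) at an unadjusted p under 0.05, and DESeq2 called 1 higher and 1 lower (70 and 171 of all genes). The median log2 fold change was 0.02 over the members (0.21 without replicate 1 and -0.12 without replicate 2 at 18 cycles) and 0.06 over all genes. Rpl39l had 217 and 212 CPM in 1/4 against 408 and 402 in the whole oocytes at 18 cycles (log2 fold change -1.05, adjusted p = 0.062 in edgeR's quasi-likelihood test, Benjamini-Hochberg adjusted).

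In 1/8, 8 of 78 members were called higher (7.08% of all genes were) and 11 lower (8.66% of all genes) than in the whole oocytes at 18 cycles. DESeq2 called 11 and 13 (1252 and 1579 of all genes), TMM scaling gave 10 and 7 (1172 and 1123) and ERCC scaling 0 and 74 (0 and 12937), so that with ERCC counts the sign of all 8 higher members flipped. The median log2 fold change was -0.13 over the members and 0.03 over all genes, with 36 of the 78 above the latter. Without replicate 1 at 18 cycles the median of the members had the other sign, 0.30, with 43 of 78 above that of all genes. The large subunit had 5 higher and 9 lower of 48 tested and the small subunit 3 and 2 of 30. Of the 12 oocyte markers, 7 were called higher and 0 lower in the same comparison (0 and 12 with ERCC scaling). This comparison shares the whole oocytes at 18 cycles with that of 18 against 10 cycles, so the directions of the comparisons are not independent. The number lower was 4 without replicate 1 at 18 cycles or replicate 1 of 1/8 (802 and 948 of all genes, against 1281 with all 8 libraries), 5 without replicate 2 of 1/8 (684), and 7 without replicate 2 at 18 cycles (940) or either replicate of 1/4 (1148 and 1168). The number higher was 5 without replicate 1 of 1/8 (731 of all genes, against 1047). Calls that held in every fit that left out a library included those of Rpl10a, Rpl17, Rpl39, Rpl8, Rps15a, Rps20 and Rps4x.

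Among the called members Rps15a rose most, with 12.3 and 13.5 CPM in the whole oocytes at 18 cycles, 24.3 and 29.5 in 1/2, 24.6 and 34.1 in 1/4, and 59.9 and 123 in 1/8. Each fraction lay above the whole oocytes, with 1/8 highest. Its log2 fold change in 1/8 was 2.62 (SE 0.41, 6.15-fold; edgeR's quasi-likelihood test, Benjamini-Hochberg adjusted p = 0.00012). Rps4x had 8.62 and 9.38 CPM in the whole oocytes at 18 cycles, 31.3 and 19.2 in 1/2, 21.6 and 30.1 in 1/4, and 52.8 and 60.5 in 1/8. Rpl17 had 67.8 and 57.2 CPM in 1/2, 73.2 and 51.5 in 1/4, and 145 and 154 in 1/8. The libraries of 1/8 were above those of the other fractions and the whole oocytes at 18 cycles in both genes, with 5.5-fold and 4.95-fold changes in 1/8. Under ERCC scaling the fold changes of these genes were negative, -2.34 for Rps15a, -2.49 for Rps4x and -2.60 for Rpl17 on the log2 scale, against a median of -4.92 over all genes.

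Rpl39, Rpl7, Rpl4 and Rpl32 were also called higher in 1/8. Rpl4, a tunnel protein of the large subunit, had 61.0 and 111 CPM in the whole oocytes at 18 cycles and 217 and 259 in 1/8. Rpl32 had 67.3 and 79.1 CPM in the whole oocytes at 18 cycles and 169 and 213 in 1/8. Their calls depended on single libraries. For Rpl4 the call was lost without replicate 1 at 18 cycles or either replicate of 1/8 (adjusted p up to 0.112), for Rpl32 in each fit without a library of the whole oocytes, 1/4 or 1/8 (up to 0.0899), and for Rpl7 in each of the 8 fits (0.0117 to 0.0827), all by edgeR's quasi-likelihood test, Benjamini-Hochberg adjusted. With ERCC scaling these 4 were negative, like the median of all genes.

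On the lower side, Rpl10a had 36.5 and 23.4 CPM in the whole oocytes at 18 cycles, 22.1 and 14.5 in 1/2, 17.1 and 10.9 in 1/4, and 5.96 and 1.18 in 1/8. Its log2 fold change in 1/8 was -2.97 (SE 0.55, 7.84-fold; edgeR's quasi-likelihood test, Benjamini-Hochberg adjusted p = 0.00046), with 2 counts in replicate 2 of 1/8. It reached -4.81 when replicate 1 of 1/8 was left out. Rpl8 had 337 and 220.1 CPM in 1/2, 242 and 218 in 1/4, and 112 and 98.1 in 1/8. Its libraries of 1/8 were close to those at 10 cycles, and the log2 fold change against the whole oocytes at 18 cycles was -2.22 (SE 0.30, 4.65-fold; edgeR's quasi-likelihood test, Benjamini-Hochberg adjusted p = 2.7e-05). Rps20 had 184 and 121 CPM in 1/2, 98.8 and 97.4 in 1/4, and 70.5 and 69.3 in 1/8, a 3.0-fold fall in 1/8.

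Rps2, at the mRNA entry channel, had 85.8 and 73.8 CPM in the whole oocytes at 18 cycles and 37.9 and 12.3 in 1/8, a log2 fold change of -1.77 that ran from -2.88 without replicate 1 of 1/8 to -1.26 without replicate 2. Rps2 was not called without replicate 2 of 1/8 (adjusted p = 0.0214, edgeR's quasi-likelihood test, Benjamini-Hochberg adjusted) or without replicate 1 at 18 cycles. Rpl21, of the large subunit, had 25 and 14 counts in the whole oocytes at 18 cycles and 13 and 3 in 1/8, and its call was lost in each of the 8 fits without a library (adjusted p 0.0134 to 0.0849 by the same edgeR test). Rpl31 was likewise called only with all 8 libraries, and Rplp1 and Rpl39l lost their calls in 5 and 7 of the 8 fits (adjusted p up to 0.0847 without replicate 1 at 18 cycles and 0.0851 without replicate 1 of 1/8, same edgeR test). Rpl19 had 9.91 and 5.88 CPM in 1/8 against 1.33 and 0 in the whole oocytes at 18 cycles and was not called (adjusted p = 0.016, same edgeR test).

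Directly against the whole oocytes at 10 cycles, 1/8 showed no called member. Of the 82 tested, edgeR called 0 higher and 0 lower, against 0% and 0% of 18041 genes, with 14 (17.1%, against 12.6% of all genes) at an unadjusted p under 0.05, and DESeq2 called 0 and 0. The median log2 fold change was 0.35 over the members and -0.06 over all genes, and 67 of the 82 lay above the median of all genes. The 19 members called higher at 18 against 10 cycles had a median of 1.74 in that comparison, -1.28 in 1/8 against whole oocytes at 18 cycles and 0.45 in 1/8 against 10 cycles. For the 8 called lower, the medians were -1.91, 2.38 and 0.18. Since the comparisons share groups, these values are set side by side only. Among library profiles, members of 1/8 correlated with those at 10 and 14 cycles at 0.960 to 0.988 (Pearson, log2(CPM + 1), across genes), and members of 1/4 and 1/2 at 0.934 to 0.947 and 0.891 to 0.932. Over all genes these values were 0.955 to 0.967 for 1/8, 0.9235 to 0.946 for 1/4 and 0.914 to 0.931 for 1/2, in the same order. The whole oocytes at 18 cycles correlated with 1/2 at 0.951 to 0.964, with 1/4 at 0.933 to 0.9485 and with 1/8 at 0.827 to 0.881, and with each other at 0.967. For these pairs the values over all genes were 0.952 to 0.962, 0.946 to 0.959, 0.88 to 0.917 and 0.957.

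The called members also differed in base composition. At 18 against 10 cycles the median GC content of the transcripts was 55.0% for the 19 higher, 48.6% for the 8 lower and 50.7% for the tested members not called. Over all genes it was 54.4%, 45.8% and 49.4%. The order was the other way round in 1/8 against whole oocytes at 18 cycles, 48.3% for the higher and 55.7% for the lower members, with 45.4% and 55.9% over all genes. The Spearman correlation of log2 fold change with GC content across the tested members was 0.229 at 18 against 10 cycles and -0.258 in 1/8, against 0.393 and -0.415 over all genes. The part of base composition in the changes was not tested.

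Paralogs of ribosomal protein genes were measured beside their parents. Rpl39l (ENSMUSG00000039209, chr16:10170226-10174911) is the germ-cell-enriched copy of Rpl39 (ENSMUSG00000079641, chrX:37082520-37085402), a small protein of the exit tunnel. Rpl39l had 122 and 147 CPM at 10 cycles, 118 and 119 at 14, 408 and 402 at 18, 457 and 348 in 1/2, 217 and 212 in 1/4, and 200.3 and 263 in 1/8. Rpl39 had 64.1 and 83.0 CPM at 10 cycles, 64.9 and 69.7 at 14, 17.6 and 17.6 at 18, 31.1 and 30.0 in 1/2, 27.6 and 29.9 in 1/4, and 68.6 and 157 in 1/8. Among the whole oocytes the copy was thus highest and the parent lowest at 18 cycles. At 18 against 10 cycles Rpl39l was 3.59-fold higher and Rpl39 3.53-fold lower (log2 fold changes 1.85 and -1.82, SE 0.20 and 0.26, adjusted p = 0.00014 and 0.00047 in edgeR's quasi-likelihood test, Benjamini-Hochberg adjusted), and with ERCC scaling the sign of Rpl39 flipped to 0.40. In 1/8 against whole oocytes at 18 cycles Rpl39l was called lower, a call lost in 7 of the 8 fits without a library, and Rpl39 higher, with a log2 fold change of 2.47 that ran from 1.79 without replicate 2 of 1/8 to 2.97 without replicate 1, and with ERCC scaling Rpl39 too had a negative value, -2.50.

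The share of Rpl39l in the counts of the pair does not depend on the scaling. It was 65.6% and 63.9% at 10 cycles, 64.6% and 63.1% at 14, 95.9% and 95.8% at 18, 93.6% and 92.1% in 1/2, 88.8% and 87.6% in 1/4, and 74.5% and 62.7% in 1/8. Whole oocytes at 18 cycles stood highest without overlap with another group, 1/2 and 1/4 followed in that order, and 1/8 overlapped the libraries at 10 and 14 cycles. Per kilobase of transcript the share was 59.2% and 57.3% at 10 cycles and 94.6% in both libraries at 18 cycles. Rpl39l shared no 50-base stretch with another gene and Rpl39 16.5%, so the reads of the pair can be told apart. Their spliced coding sequences from the GENCODE transcripts (GRCm38, 156 bases each, on chr16:10174310-10174465, plus strand, and within chrX:37082701-37085127, minus strand) are shown because they are how the pair is separated. They are identical at 85.3% of the positions, and capitals mark the 23 that differ.
Rpl39l: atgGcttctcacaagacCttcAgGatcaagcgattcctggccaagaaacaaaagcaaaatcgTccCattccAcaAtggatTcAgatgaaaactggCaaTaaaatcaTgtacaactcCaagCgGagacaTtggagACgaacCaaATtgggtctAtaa
Rpl39: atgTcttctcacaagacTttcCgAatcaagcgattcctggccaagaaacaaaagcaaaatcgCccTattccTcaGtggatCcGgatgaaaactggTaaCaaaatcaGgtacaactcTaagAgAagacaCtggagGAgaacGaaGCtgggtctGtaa

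Rpl36al, a copy of Rpl36a, held 87.6% and 90.8% of the counts of its pair at 10 cycles, 86.9% and 84.2% at 14, 98.2% and 98.4% at 18, 96.9% and 98.1% in 1/2, 95.5% and 98.95% in 1/4, and 89.4% and 91.4% in 1/8. Both libraries at 18 cycles from whole oocytes lay above all 4 at 10 and 14 cycles. Neither gene was called at 18 against 10 cycles (log2 fold changes 0.83 and -1.99), and both are uncertain, since 63.1% of Rpl36al is overlapped by Gm49383 and Rpl36a shares 85.5% of its stretches. Rpl22l1, a copy of the RNA-binding protein Rpl22, had fewer counts than its parent in every library. Its share was 24.2% and 22.4% at 10 cycles, 22.7% and 23.9% at 14, 10.0% and 9.52% at 18, 15.6% and 13.9% in 1/2, and 18.9% and 22.1% in 1/8. In 1/4 the libraries disagreed, at 12.4% and 29.2%. Per kilobase of transcript it was the larger part at 10 and 14 cycles (54.3% and 51.8%, then 52.2% and 53.9%) and in replicate 2 of 1/4 and of 1/8 (60.5% and 51.3%), and the smaller part elsewhere, with 29.2% and 28.1% at 18 cycles. Neither Rpl22 nor Rpl22l1 was called at 18 against 10 cycles (log2 fold changes 0.18 and -1.23).

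**Figure D4:**
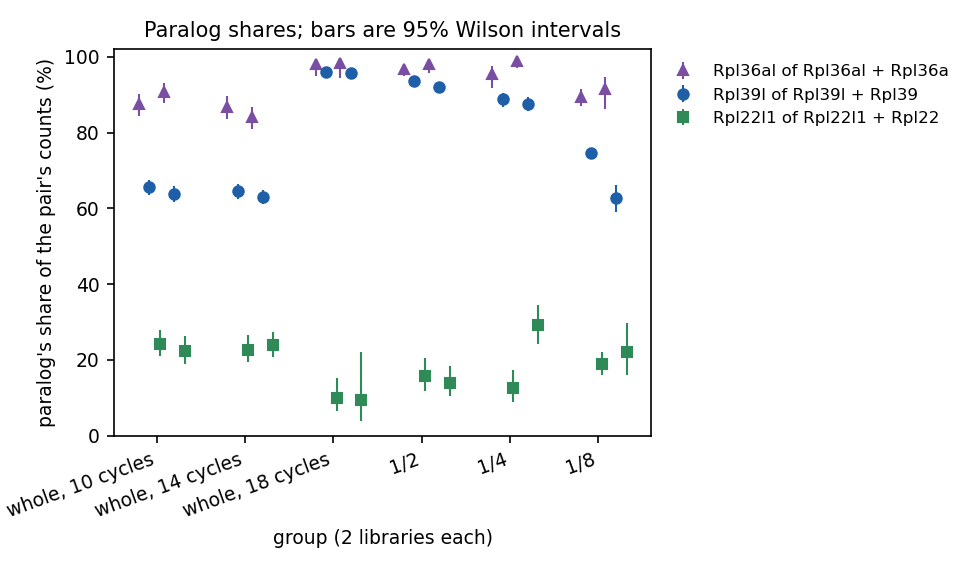
Counts of a paralog as a percentage of the counts of the paralog and its parent (vertical axis) for Rpl36al (purple triangles), Rpl39l (blue circles) and Rpl22l1 (green squares) in each library, with 95% Wilson intervals as bars. Rpl39l is at 63.1% to 65.6% in the libraries at 10 and 14 cycles and at 95.8% and 95.9% in the whole oocytes at 18 cycles.

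Rps27l, a copy of Rps27 known as a p53 target, had 58.3 and 75.2 CPM at 10 cycles and 161 and 209.8 at 18 cycles and was called higher (log2 fold change 1.74, adjusted p = 0.00048 in edgeR's quasi-likelihood test, Benjamini-Hochberg adjusted), but not without replicate 1 at 10 cycles (adjusted p = 0.0106 by the same test). Its parent Rps27 had between 0 and 14 counts in each library, which shared sequence leaves uncertain, and Rps27rt, a retrotransposed copy, had at most 4. Rpl10l, an autosomal copy of the X-linked Rpl10, had 32 and 24 counts at 10 cycles and 46 and 42 at 14, next to 42 and 27 then 23 and 54 for Rpl10. Rpl10l shared 7.60% of its stretches and Rpl10 92.1%, so their ratio is uncertain. Rpl10-ps3 had at most 3 counts in any library.

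The start of the transcript was examined for pyrimidines because the TOP motif is the regulatory sequence these genes are known for. RefSeq promoter sequences (GRCm38.p6) matched 64 of the 90 members. A run of at least 6 bases that are all C or T, lying within 2 bases of the annotated start on the gene's strand, was present in 24 of them (37.5%), against 14.4% of all 27025 promoters and 10 of 69 (14.5%) mitochondrial ribosomal protein genes. Of the members called higher at 18 against 10 cycles 9 of 15 with a promoter had the run, and of those called lower 1 of 4, which is a description of a few genes. The calls of Rpl35, Rpl14 and Rps9 were lost without replicate 1 at 10 cycles (adjusted p = 0.0112, 0.0184 and 0.0183 in edgeR's quasi-likelihood test, Benjamini-Hochberg), those of Rpl14 and Rps9 also without replicate 2 at 10 cycles, and that of Rpl14 also without replicate 1 at 18 cycles. Windows of 30 bases around the start are shown for some of the called members, with the run in capitals: Rplp2 (chr7:141447636-141447665, plus strand), Rpl35 (chr2:39005117-39005146, minus), Rpl14 (chr9:120571502-120571531, plus), Rps9 (chr7:3704026-3704055, plus), Rpl39l (chr16:10170213-10170242, plus) and, called lower, Rps15a (chr7:118116133-118116162, minus).
Rplp2: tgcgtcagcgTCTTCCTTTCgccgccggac
Rpl35: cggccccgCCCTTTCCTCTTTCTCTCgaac
Rpl14: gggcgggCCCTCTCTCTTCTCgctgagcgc
Rps9: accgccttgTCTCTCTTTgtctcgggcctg
Rpl39l: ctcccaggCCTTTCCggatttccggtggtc
Rps15a: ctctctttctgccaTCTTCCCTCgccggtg

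Other genes of the same pathway gave the frame for these values. Of 20 other mRNAs with a TOP motif, such as translation factors, 6 were called higher at 18 against 10 cycles (Eef1b2, Eif3f, Eif3h, Fau and Tpt1 among them) and 3 lower (Eef1a1, Eif3e and Npm1), with a median log2 fold change of -0.06. Of 63 genes of ribosome biogenesis, which make rRNA and assemble the subunits, 10 were called higher and 13 lower, with a median of 0.04. Of the 78 mitochondrial ribosomal protein genes 38 were called higher and 8 lower, with a median of 0.95. For 1/8, against the same whole oocytes at 18 cycles, the counts were 3 higher and 3 lower of 19 TOP mRNAs, 12 and 7 of 63 biogenesis genes, and 12 and 18 of 78 mitochondrial ribosomal protein genes. Over all genes 12.2% were called higher and 10.9% lower at 18 against 10 cycles, and 7.08% and 8.66% in 1/8. In 1/2 edgeR called Mrpl22 and Mrpl32 of these lists higher, and in 1/4 Mrps18a lower. DESeq2 called 1, 3 and 3 genes of the TOP, biogenesis and mitochondrial lists higher and 0 lower in 1/2, and in 1/4 it called 1, 0 and 0 higher and 0, 1 and 5 lower. At 14 against 10 cycles edgeR and DESeq2 gave 0 calls in each of the lists, with 0, 3 and 1 genes at an unadjusted p under 0.05 in the TOP, biogenesis and mitochondrial lists (2.93% of all genes). In 1/8 against 10 cycles edgeR gave 0 calls, with 4, 7 and 27 genes at an unadjusted p under 0.05 (12.6% of all genes), and DESeq2 called 1 mitochondrial ribosomal protein gene higher. With ERCC scaling the lower calls of all these lists at 18 against 10 cycles and the higher calls in 1/8 were gone, with 13, 45 and 63 higher and 0 lower in the former and 0 higher and 19, 63 and 77 lower in the latter. Over all genes this scaling gave 8348 of 17532 higher and 0 lower in the former and 0 higher and 12937 of 14788 lower in the latter.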

How the data were processed

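RNA-seq of poly(A) RNA was done in 12 libraries of mouse GV oocytes, 2 in each of 6 groups taken from the sample labels. The authors deposited raw HTSeq counts for each gene and ERCC molecule. The submitters' processing notes name cutadapt 2.5, FastQC 0.11.8, STAR 2.7.2a, SAMtools 1.9, HTSeq 0.9.1 and the build mm10, and the methods state GRCm38 with the ERCC sequences and default HTSeq settings. Whether counting used strand could not be settled. Reads on no feature made up 6.90% to 10.8% and ambiguous reads 2.64% to 4.53% of each library, and both stayed out of library sizes and tests. The line for reads mapped to several places is 0 in every file. Gene counts ranged from 1702062 to 13806199, so the shallowest library limits precision for low members.

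I took symbols, positions, lengths and GC content from GENCODE mouse release 21 (GRCm38) and compared transcripts by shared stretches of 50 bases. A gene entered a fit when 2 or more of its libraries had 5 or more counts. Tests used edgeR 4.0.16 under R 4.3.3 (quasi-likelihood test, Benjamini-Hochberg adjustment over all genes kept, threshold 0.01). The cycle fit held the 6 whole oocytes (17532 genes), the fraction fit the 8 libraries at 18 cycles (14788 genes), and the fit of 1/8 against 10 cycles all 12 (18041 genes). Size factors were the median ratio over all genes. They were first computed over the genes kept, and this was changed after the counts of calls over all genes had been seen. The fit was tested on simulated data. Shares were compared by exact permutation tests.

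The alternatives were DESeq2 1.42.0, TMM and ERCC size factors, no filter, a minimum of 10 counts in every library, the replicate number as a block, all 12 libraries, each library left out, and, for shares, reads on no feature or pseudogenes added. Genes named are those the study names (Rps20, Rpl19 and Rpl32), the stalk genes and Rpsa, paralogs with their parents, the 5 highest and 5 lowest members, those at 0 in all libraries, and the 5 largest called changes in each direction. Rpl4, Rpl24, Rpl14, Rpl35 and Rps9 fall outside the rule and were named after their values were seen. Rpl13a, Rpl23a, Rpl30, Rpl5, Rps10 and Rps25 also fall outside it and are named only for their overlap with other genes. Some results under these rules are not reported here. The members and lists were chosen with earlier results of these data known.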

Additional observations from a re-analysis of the deposited data

How the results depend on the processing

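The numbers of members called were within 1.5-fold of the values reported under every alternative not named here, and the cause of those that moved was not tested. With ERCC size factors 53 members were higher and 0 lower at 18 against 10 cycles (19 and 8 with the median ratio), 0 higher and 22 lower in 1/2, 58 lower in 1/4, 0 higher and 74 lower in 1/8, and 71 lower in 1/8 against 10 cycles. Over all genes this scaling gave 8348 of 17532 higher at 18 against 10 cycles, 7697, 10301 and 12937 of 14788 lower in 1/2, 1/4 and 1/8, and 13401 of 18041 lower in 1/8 against 10 cycles. The log2 fold changes that reversed with ERCC size factors included, at 18 against 10 cycles, those of Rpl39 (0.40), Rpl7 (0.35), Rps14 (1.35) and Rps15a (0.33), and in 1/8 against whole oocytes those of Rpl17 (-2.60), Rpl32 (-3.75), Rpl39 (-2.50), Rpl4 (-3.60), Rpl7 (-3.37), Rps15a (-2.34) and Rps4x (-2.49). With TMM the count was 0 higher in 1/2 and 10 higher and 7 lower in 1/8 (8 and 11 with the median ratio). Without a filter 4 members were higher in 1/2, 1 higher and 1 lower in 1/4, and 1 higher in 1/8 against 10 cycles. DESeq2 called 4 higher in 1/2 and 1 higher and 1 lower in 1/4, and the fit of all 12 libraries called 4 higher in 1/2 and 1 higher in 1/4. The deviations of same-numbered libraries correlated between -0.171 and 0.220 in the cycle fit and between -0.040 and 0.038 in the fraction fit. These values also hold counting error, so they cannot settle whether same-numbered fractions came from the same oocyte. With the replicate number as a block 18 members were higher and 10 lower at 18 against 10 cycles, 4 higher in 1/2, 1 higher in 1/4, and 10 higher and 13 lower in 1/8. With the numbers at 14 cycles crossed, a choice made after seeing the data, the block gave 19 higher and 10 lower at 18 against 10 cycles and 0 and 0 at 14 against 10 cycles. Median ratios over the genes kept, also chosen after seeing the data, left every count of called members the same. Over the fits that each left out 1 library, in which a lone library is assumed to vary like the other groups, the counts ran from 9 to 21 higher and 6 to 9 lower at 18 against 10 cycles, from 0 to 3 higher in 1/2, and from 5 to 8 higher and 4 to 9 lower in 1/8. Apart from ERCC size factors, all 27 and 19 called members at 18 against 10 cycles and in 1/8 kept their direction wherever they were tested. The filter of 10 counts in every library tested only 26 and 17 of them. With reads on no feature added to the total the mean share of gene counts was 0.278% at 10 cycles, 0.267% at 14 cycles, 0.354% in 1/4 and 0.369% in 1/8, and with the annotated pseudogenes as members it was 0.334%, 0.321%, 0.431% and 0.435% in these groups and 0.454% in whole oocytes at 18 cycles. Leaving out a library moved the mean share to the value of the other one, from 0.306% to 0.318% at 10 cycles, 0.290% to 0.309% at 14, 0.366% to 0.432% at 18, 0.450% to 0.662% in 1/2, 0.371% to 0.398% in 1/4 and 0.383% to 0.424% in 1/8.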
